A study of Mus musculus with 6 samples.

Results

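Cytochrome P450 genes were taken as the protein-coding genes of the count table whose symbol starts with Cyp, a family number, a subfamily letter and a member number, leaving out Cyp51 of sterol synthesis and all pseudogenes. This rule found 99 of the 55335 genes in the table, of which 21899 were protein-coding. Of the 99 genes, 56 had at least 10 counts summed over the 6 libraries, 18 had fewer than 10 but at least 1, and 25 had 0. The rule used names only and no measured value, although the members were chosen with earlier results of these data known.

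The study compared intestinal tissue of 3 wild-type (WT) mice with that of 3 Trmt6-/- mice, all with colitis induced by dextran sulfate sodium (DSS), so every library came from a DSS-treated animal and no untreated tissue was measured. TRMT6 is a subunit of the enzyme that methylates adenosine in tRNA, and the comparison asks how its loss changes gene expression in this colitis model. The strain, sex and age of the mice, the DSS dose, the stretch of intestine taken and whether Trmt6 was lost in all cells or in some are not given in the sources used here. The libraries are called KO72, KO73 and KO75, labelled Trmt6-/-, and WT185, WT186 and WT187, and values always follow that order.

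Trmt6 itself had 39.8, 34.2 and 36.2 CPM across libraries labelled Trmt6-/- and 30.9, 18.7 and 23.1 CPM in WT. Each library labelled Trmt6-/- thus had more, not less, of this transcript than any WT library, so the labels are used here as given and the count of this gene does not check them. CPM are counts scaled to a fixed library total, with totals adjusted by TMM, a normalization that lines up most genes between libraries. Library totals ran from 15213972 to 16972758 counts, so 3 counts, the upper limit that a count of 0 allows, came to between 0.156 and 0.213 CPM on the TMM-scaled library sizes. Enterocyte genes were high in all 6 libraries, with the aminopeptidase gene Anpep at 6239, 10312 and 7401 CPM and 5288, 6379.8 and 6841 CPM, whereas Hoxb13 and Hoxd13, genes of the distal colon, had no count in any library. Both come from a list of 8 colon genes, of which 5 had enough counts to be tested, so other genes of that list were present.

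P450 enzymes hold a heme whose iron is bound by a cysteine, and they use it to insert oxygen into drugs, dietary compounds, fatty acids, eicosanoids, bile acids, steroids and vitamins A and D. Most sit in the endoplasmic reticulum and take electrons from P450 oxidoreductase, while a few in mitochondria take them from ferredoxin. In the small intestine, Cyp3a and Cyp2c enzymes of the enterocyte act on swallowed compounds before they reach the liver, and many of their genes answer to ligand sensors, among them the aryl hydrocarbon receptor (AHR) for Cyp1a1, the constitutive androstane receptor (CAR) for Cyp2b10 and the pregnane X receptor (PXR) for Cyp3a11.

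The coding bases of the loop around the heme-binding cysteine show what the family shares and how alike its neighbours are, which bears on how far reads can be told apart between them. They come from the GENCODE M21 transcripts on GRCm38, run 5′ to 3′ on the coding strand, and the capitals mark the cysteine codon. A search of each gene's longest reading frame for the signature of this loop found it in 94 of the 99 genes. The 5 without a match were Cyp2b10, Cyp2s1, Cyp3a59, Cyp8b1 and Cyp20a1, so none of these could be shown.
Cyp1a1: tttggtttgggcaagcgaaagTGCatcgga
Cyp2c29: ttttcaacaggaaaacggattTGTgctgga
Cyp2c65: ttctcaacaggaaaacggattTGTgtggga
Cyp2c66: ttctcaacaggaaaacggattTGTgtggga
Cyp3a11: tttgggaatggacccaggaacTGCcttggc
Cyp3a13: tttgggagtggaccaaggaacTGCattggc
Cyp3a25: tttggaaatggacccaggaacTGCataggc
Cyp4f14: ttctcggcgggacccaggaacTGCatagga
Cyp4f16: ttttctgccgggcccaggaacTGCatagga
Cyp11b1: tttggctttggggtgcgccagTGCctgggg
Cyp11b2: tttggctttggggtgcgccagTGCctgggg
Cyp2c65 and Cyp2c66 had the same 30 bases here, as did Cyp11b1 and Cyp11b2. Cyp3a11 matched Cyp3a13 at 27 of 30 bases and Cyp3a25 at 27, and Cyp4f14 matched Cyp4f16 at 26. Between families fewer bases matched, with 16 of 30 for Cyp1a1 and Cyp4f14. Over whole transcripts, 29 of the 99 genes had more than 20% of their 50-base windows also present in another gene, and 46 had under 5%. Per the file headers no option for reads with several placements was set, so such reads were left out of the counts, and values of the closest pairs rest on the rest of each transcript.

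Of the 56 genes with at least 10 counts, 37 passed the filter on low counts and were tested in edgeR's quasi-likelihood fit over 14107 genes. The other 19 had between 10 and 93 counts. None of the 37 passed a Benjamini-Hochberg adjusted p of 0.05, a threshold that 0.0425% of all genes tested passed (6 genes, 0.0354% higher and 0.00709% lower). At an unadjusted p under 0.05, 10 P450 genes were lower in the libraries labelled Trmt6-/- (27.0% of 37, against 5.94% of all genes tested) and 2 were higher (5.41%, against 6.15%). The lower genes were Cyp1a1, Cyp2b10, Cyp2c29, Cyp2c65, Cyp2c66, Cyp2c68, Cyp2d26, Cyp2e1, Cyp3a11 and Cyp4f15, and the higher ones were Cyp2u1 and Cyp11b2. The low-count filter keeps a gene that reaches its threshold in as many libraries as a group holds. Cyp2c29 had 0, 2 and 0 counts in the libraries labelled Trmt6-/-, and Cyp11b2 had 0 in WT. Both thus passed only through the group where they were high, which already asks for reads in that whole group. They enter the counts here and below, and the same filter set the shares of all genes tested. DESeq2 called 633 genes on the same counts, among them 3 lower P450 genes (Cyp2b10, Cyp2c65 and Cyp2c68, against 1.83% of all genes tested) and 2 higher ones (Cyp2u1 and Cyp11b2, against 2.66%). DESeq2 gave no p-value to Cyp2c29 and Cyp2c66, so it made no call on them. Limma-voom called 0 genes of the table, P450 genes included.

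For 11 P450 genes all libraries labelled Trmt6-/- lay below all WT libraries (29.7%, against 9.03% of all genes tested), and for 3 they lay above them (8.11%, against 9.7%). The log2 fold change, labelled Trmt6-/- over WT, was below 0 for 26 of 37 (70.3%, against 53.9%), below -1 for 14 (37.8%, against 4.66%) and above 1 for 1 (2.70%, against 4.42%). Its median was -0.79 over the P450 genes and -0.03 over all genes tested. These counts are descriptions of the family, whose members include close paralogs and chromosomal neighbours and are not replicates.

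A single WT library, WT186, had the highest value of all 6 for 24 of the 37 genes (64.9%, against 24.7% of all genes tested). Summed over all 99 genes and scaled by gene length to TPM, a unit in which every library has the same total, P450 transcripts came to 4356, 5266 and 4971 TPM in the libraries labelled Trmt6-/- and to 3970, 14057 and 6315 TPM in WT. This sum overlapped between the groups, since WT185 lay below all 3 libraries labelled Trmt6-/-, and WT186 lay far above the next highest library. Without WT186 the median log2 fold change of the P450 genes was -0.12. Leaving out WT186 cannot bring together groups that lay apart, and without it 11 P450 genes lay wholly lower (against 15.3% of all genes tested) and 7 wholly higher (against 15.7%). In the fit without it, 8 of the 10 lower genes kept an unadjusted p under 0.05, Cyp3a11 and Cyp4f15 being the exceptions.

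**Figure D1:**
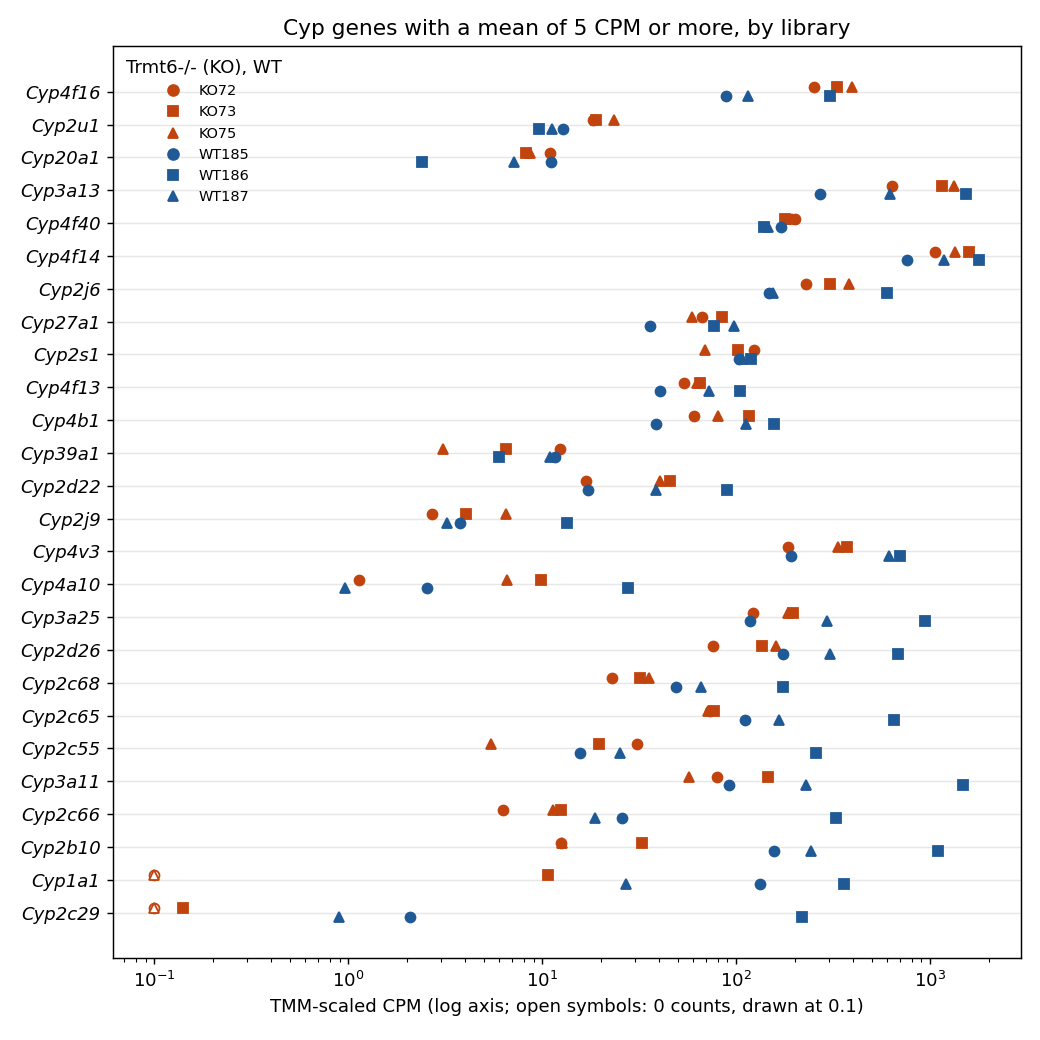
Level of each P450 gene with a mean of at least 5 CPM in every library, on a log axis of CPM, with a colour for each group, a shape for each library and open symbols for 0 counts. WT186 holds the highest value for 19 of these 26 genes, while Cyp1a1, Cyp2b10 and Cyp2c65 are lower in every library labelled Trmt6-/- than in any WT library.

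Levels between genes were compared per length. Cyp4f14 was the most abundant P450 transcript, at a mean of 1678 TPM over the 6 libraries, followed by Cyp3a13 at 963 TPM, and these 2 made 40.7% of the family's summed mean level. Next came Cyp3a25 at 470.4 TPM, Cyp2d26 at 458 TPM, Cyp2b10 at 393 TPM, Cyp4v3 at 337 TPM and Cyp2c65 at 317 TPM. The spread between libraries was as large as the steps between these neighbours in the order, with an SD over the 6 libraries of 466 TPM for Cyp3a25 and 387 TPM for Cyp2d26. The first 10 genes, which also held Cyp2j6, Cyp4f16 and Cyp4f40, made 82.4% of the family's level. In these bulk libraries, fewer cells of a type and less RNA per cell cannot be told apart.

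Cyp1a1, the enzyme that oxidises polycyclic aromatic hydrocarbons and the most used readout of the AHR, had a wide gap between groups. It lies at chr9:57687928-57703824 on the plus strand (mm10) and had 0, 153 and 0 counts in the libraries labelled Trmt6-/- and 2532, 5241 and 449 counts in WT. As normalised levels these were 0, 10.7 and 0 CPM against 132, 358 and 26.9 CPM. No library labelled Trmt6-/- reached the lowest WT library, although within each group the values spread widely. On the log2 scale the fold change was -5.61 ± 1.82, at an unadjusted p of 0.0182 and an adjusted p of 0.298, and it was -4.48 ± 1.72 without WT186 (unadjusted p = 0.0388). KO73 held every count of the libraries labelled Trmt6-/-, so the size of the fold rests on that library. Without KO73 the lower group was at 0, and the unadjusted p was 0.00231 (adjusted p = 0.452). Its neighbour Cyp1a2, an enzyme of caffeine and arylamine oxidation, was too low to be tested. It had 1, 0 and 0 counts in the libraries labelled Trmt6-/- and 9, 14 and 0 in WT, so the groups overlapped at WT187. Pooled, 1 count against 23 gave a WT to Trmt6-/- ratio of 22.0 (exact 95% counting interval 3.58 to 908), which leaves out the spread between libraries. Cyp1b1 had fewer than 10 counts in all.

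The bases before the Cyp1a1 start are shown because the pentamer GCGTG is the core that AHR and its partner bind. They cover chr9:57697363-57697612 on the plus strand of GRCm38.p6, from RefSeq, and end just before the RefSeq transcript start. They lie within the span counted for Cyp1a1, which begins further upstream at 57687928, and their overlap with exons was not tested. Capitals mark the core.
Cyp1a1 upstream: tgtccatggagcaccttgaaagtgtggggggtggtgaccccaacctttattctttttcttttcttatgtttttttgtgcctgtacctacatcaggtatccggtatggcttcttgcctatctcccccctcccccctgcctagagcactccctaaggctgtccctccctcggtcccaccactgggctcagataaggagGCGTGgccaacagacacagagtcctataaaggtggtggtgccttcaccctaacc
The core begins 54 bases before the start. On either strand (GCGTG or its reverse complement CACGC) the core was found in 28.2% of the 32851 windows of this length before all RefSeq starts, and in 16 of the 86 windows of the 76 P450 genes that matched by symbol. Letters in a window are a description and do not show binding.

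Ahr, the gene of the receptor itself, had 15.2, 17.7 and 19.1 CPM across libraries labelled Trmt6-/- and 35.7, 42.8 and 29.1 CPM in WT. The groups did not overlap, at a log2 fold change of -1.05 ± 0.20 (unadjusted p = 0.00114, adjusted p = 0.153). The partner gene Arnt had values of 60.2, 57.2 and 57.4 CPM against 57.3, 72.2 and 58.3 CPM, which overlapped. Of the other genes that answer to AHR, the receptor's repressor gene Ahrr had 0.734, 1.19 and 2.704 CPM against 2.45, 2.12 and 4.73 CPM, and Tiparp, which modifies the receptor, had 31.7, 34.4 and 37.7 CPM against 28.5, 52.9 and 51.5 CPM. Neither stood apart between the groups.

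Cyp2b10, the phenobarbital-inducible enzyme that serves as the usual readout of CAR, had 12.5, 32.5 and 12.7 CPM across libraries labelled Trmt6-/- and 156, 1094 and 242 CPM in WT. Every WT library was above every library labelled Trmt6-/-, and the lowest WT library lay well over the highest of the others. On the log2 scale the fold change was -4.69 ± 0.89, at an unadjusted p of 0.00125 and an adjusted p of 0.158, and without WT186 it was -3.35 ± 0.48 (unadjusted p = 0.000378, adjusted p = 0.149). By DESeq2 the adjusted p was 1.22e-07, and without the low-count filter, where 0.193% of all genes tested were called lower and 0.397% higher, edgeR gave 0.0104. The remaining 4 Cyp2b genes had under 10 counts each. The CAR gene Nr1i3 had 8.24, 10.8 and 17.4 CPM against 7.45, 33.98 and 11.6 CPM, and these ranges overlapped.

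The Cyp2c enzymes turn arachidonic and linoleic acid into epoxides and oxidise drugs. Of 15 members, 9 had at least 10 counts and 6 were tested. Cyp2c65 had 73.1, 77.1 and 71.2 CPM across libraries labelled Trmt6-/- and 110.3, 647 and 166 CPM in WT. The 3 libraries labelled Trmt6-/- lay close together and below all WT libraries, at a log2 fold change of -2.06 ± 0.64 (unadjusted p = 0.0151, adjusted p = 0.281). The difference was smaller and less variable without WT186, at -0.89 ± 0.20 (unadjusted p = 0.0037, adjusted p = 0.239). Cyp2c66, whose transcript shares 20.4% of its 50-base windows with another gene, had 6.26, 12.5 and 11.3 CPM against 25.7, 328 and 18.8 CPM. Its groups did not overlap either, at -3.63 ± 1.15 on the log2 scale with all libraries and -1.14 ± 0.35 without WT186.

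Cyp2c68 had 22.97, 31.8 and 35.4 CPM across libraries labelled Trmt6-/- and 48.98, 174 and 66.1 CPM in WT, again without overlap, at a log2 fold change of -1.68 ± 0.48 (unadjusted p = 0.0103, adjusted p = 0.262) and -0.92 ± 0.24 without WT186. Of its 50-base windows 43.3% are present in another gene, against 20.7% for Cyp2c65, so its count is less certain. Cyp2c29, an inducible epoxygenase best known from liver, was present almost only in WT186, with 0, 0.1397 and 0 CPM against 2.08, 217 and 0.899 CPM. The 2 other WT libraries also lay above the libraries labelled Trmt6-/-, at a far lower level, so the size of its difference rests on 1 library. Its 2 counts over the libraries labelled Trmt6-/- against 3239 over WT gave a WT to Trmt6-/- ratio of 1552 (exact 95% counting interval 429 to 12816), and the fitted log2 fold change went from -10.48 ± 3.02 (unadjusted p = 0.0106, adjusted p = 0.264) to -4.86 ± 1.09 without WT186 (unadjusted p = 0.00392). Cyp2c55, an arachidonic acid oxidising member, overlapped between groups, with 30.6, 19.6 and 5.41 CPM against 15.6, 258 and 25.1 CPM, and its log2 fold change moved from -2.42 ± 1.15 to -0.12 ± 0.64 when WT186 was left out. Cyp2c38 had 1 count over the libraries labelled Trmt6-/- and 92 over WT (ratio 88.1, counting interval 15.4 to 3518), nearly all of them in WT186. Cyp2c23, a renal and hepatic epoxygenase, had a log2 fold change of -1.23 ± 0.66 (unadjusted p = 0.107) and -0.28 ± 0.51 without WT186.

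Most Cyp2c genes lie side by side on chromosome 19, where 14 of them span chr19:39007019-40187333. In this cluster 5 genes were tested, all 5 had a log2 fold change below 0 (against 53.9% of all genes tested) and 4 were lower at an unadjusted p under 0.05 (against 5.94%). The Cyp3a cluster on chromosome 5 had 4 tested genes, 3 below 0 and 1 lower at that p, and the Cyp4f cluster on chromosome 17 had 6, with 3 below 0 and 1 lower at that p, against the same shares of all genes.

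**Figure D2:**
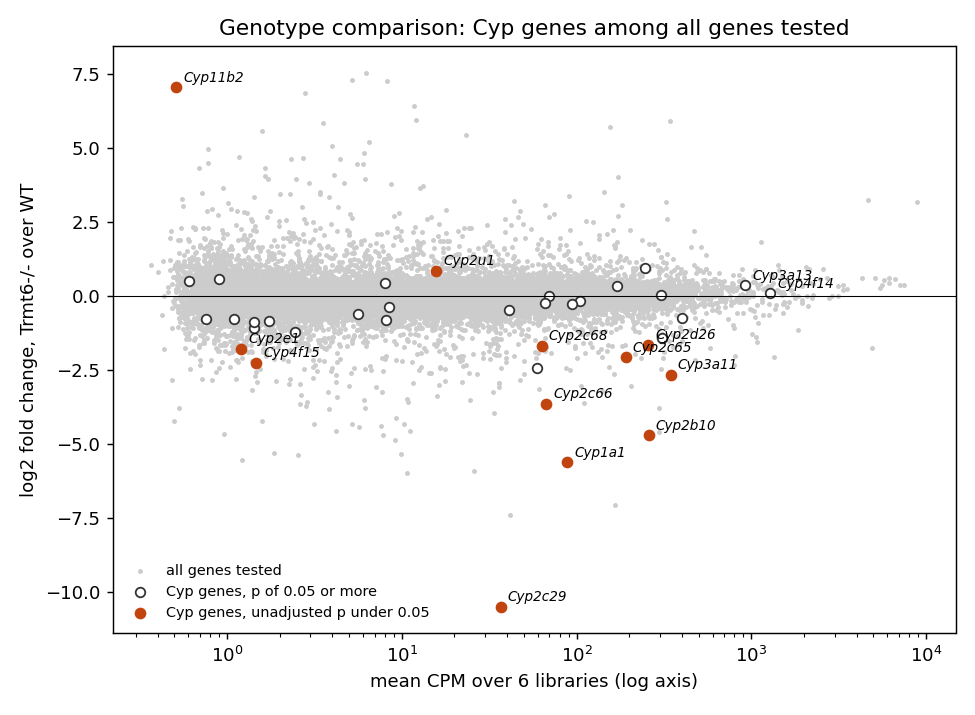
Log2 fold change (labelled Trmt6-/- over WT) against mean CPM on a log axis, with all 14107 tested genes in grey and the 37 P450 genes over them, filled at an unadjusted p under 0.05. The filled points of Cyp1a1, Cyp2c29 and Cyp2b10 are the lowest, and the value of Cyp11b2 depends on a prior count because WT has no count.

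Cyp2d26 is a member of the subfamily that in human holds the debrisoquine-oxidising enzyme. It had 75.97, 135 and 161 CPM across libraries labelled Trmt6-/- and 174, 684 and 304 CPM in WT. The groups did not overlap, but the highest library labelled Trmt6-/- came close to the lowest WT library, which gave -1.64 ± 0.53 on the log2 scale and -0.93 ± 0.38 without WT186 (all libraries, unadjusted p = 0.0178, adjusted p = 0.295). Cyp2d22 overlapped, with 16.8, 45.5 and 40.6 CPM against 17.1, 89.2 and 38.4 CPM, and its direction turned without WT186, from -0.49 ± 0.62 to 0.33 ± 0.51. Cyp2e1, which oxidises ethanol and small solvents, was scarce, with 0.959, 0.489 and 0.142 CPM against 3.02, 1.23 and 1.38 CPM. All WT libraries lay above all others for it, at a log2 fold change of -1.79 ± 0.69 (unadjusted p = 0.0373, adjusted p = 0.374).

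Of the 17 tested Cyp2 genes, 14 had a log2 fold change below 0 (82.4%, against 53.9% of all genes tested). Cyp2u1, a fatty acid hydroxylase, had 18.3, 19.00 and 23.4 CPM across libraries labelled Trmt6-/- and 12.8, 9.62 and 11.1 CPM in WT. It was higher in all 3 libraries labelled Trmt6-/-, with little spread in either group, at a log2 fold change of 0.85 ± 0.20 (unadjusted p = 0.00425, adjusted p = 0.205) and 0.77 ± 0.22 without WT186. DESeq2 gave it an adjusted p of 0.00812. Cyp2j6, a fatty acid epoxygenase, had 229.6, 304 and 382 CPM against 147, 598 and 154 CPM. It overlapped between the groups only through WT186, and its log2 fold change went from 0.03 ± 0.57 with all libraries to 1.03 ± 0.26 without that one (unadjusted p = 0.00658, adjusted p = 0.267).

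Cyp2j9 of the same subfamily had 2.71, 4.05 and 6.48 CPM against 3.75, 13.4 and 3.24 CPM. Its groups overlapped, and WT186 was again the highest. Cyp2s1, a member known from epithelia, had 124, 102 and 68.7 CPM against 104, 119.6 and 108 CPM, at a log2 fold change of -0.17 ± 0.23 that was smaller than the spread between libraries. Cyp2r1, a vitamin D hydroxylase, had 0.734, 0.279 and 1.71 CPM against 1.72, 2.12 and 1.98 CPM, groups that just failed to overlap, with an unadjusted p of 0.118.

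Cyp3a enzymes are the main drug and steroid oxidases of the gut, and PXR, the product of Nr1i2, is their best known activator. Of the 9 genes, 5 had at least 10 counts, and all 5 were tested, Cyp3a11, Cyp3a13, Cyp3a25, Cyp3a44 and Cyp3a59. Cyp3a11 had 79.5, 145 and 57.3 CPM across libraries labelled Trmt6-/- and 91.2, 1468 and 228 CPM in WT. The groups overlapped, since WT185 lay within the range of the libraries labelled Trmt6-/-, and the log2 fold change of -2.66 ± 1.005 (unadjusted p = 0.0334, adjusted p = 0.363) became -0.74 ± 0.50 without WT186 (unadjusted p = 0.188). Cyp3a25 had 122, 196 and 184 CPM against 118, 939.9 and 294 CPM and overlapped in the same way, with a log2 fold change of -1.43 ± 0.69 that became -0.28 ± 0.41.

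Cyp3a13, the most abundant member of the subfamily, had its lowest values in WT. It had 633, 1145 and 1320.2 CPM across libraries labelled Trmt6-/- and 272, 1533 and 617 CPM in WT. The 2 lower WT libraries lay below all 3 libraries labelled Trmt6-/- and WT186 above them, so the log2 fold change was 0.36 ± 0.62 with all libraries and 1.24 ± 0.47 without WT186 (unadjusted p = 0.0389, adjusted p = 0.405). Nr1i2 had 118, 164 and 171 CPM against 75.6, 169.7 and 129 CPM and overlapped. Cyp3a44 and Cyp3a59 stayed at or under 2.12 CPM in every library, and Cyp2w1 at or under 4.01 CPM.

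**Figure D3:**
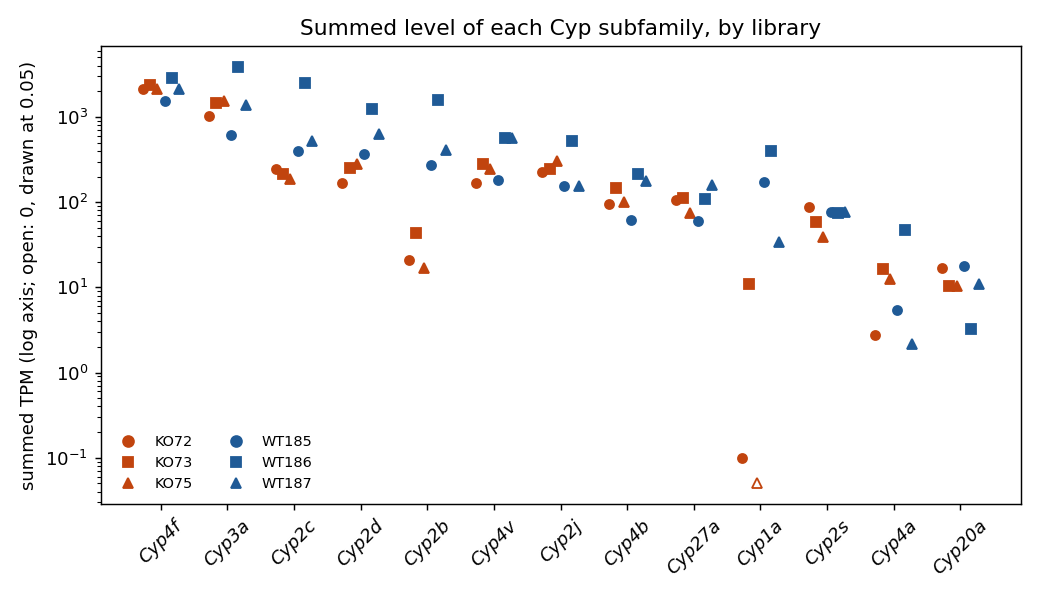
Summed level of each P450 subfamily with a mean of at least 10 TPM, per library on a log axis of TPM with open symbols for 0. The Cyp1a and Cyp2b sums separate the groups, and the Cyp2c and Cyp2d sums also lie lower in every library labelled Trmt6-/-, while the Cyp3a and Cyp4f sums overlap.

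Summed by subfamily, Cyp2c transcripts came to 248, 215 and 187 TPM for the libraries labelled Trmt6-/- and 398, 2509 and 526 TPM in WT. The lowest WT library lay above the highest library labelled Trmt6-/-. Cyp2d transcripts came to 167, 249.5 and 281 TPM for the libraries labelled Trmt6-/- and 372, 1253 and 638 TPM in WT, also without overlap, whereas Cyp3a transcripts came to 1018, 1453 and 1525 TPM for the libraries labelled Trmt6-/- and 612, 3890.5 and 1402 TPM in WT and Cyp4f transcripts to 2156, 2403 and 2156 TPM for the libraries labelled Trmt6-/- and 1541, 2841 and 2119.7 TPM in WT, both of which overlapped. These sums weigh the abundant members most and were not tested.

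Cyp4 enzymes hydroxylate the far end of fatty acids and eicosanoids, leukotriene B4 among them in the case of the Cyp4f group. Cyp4f14, the most abundant P450 transcript, had 1057, 1575 and 1335 CPM across libraries labelled Trmt6-/- and 756, 1788 and 1171 CPM in WT. The groups overlapped, and its log2 fold change of 0.09 ± 0.36 was smaller than its SE. Cyp4f16, which shares 26.5% of its 50-base windows with another gene, had 252, 329 and 396 CPM against 88.5, 303 and 115 CPM. Only WT186 reached into the range of the libraries labelled Trmt6-/-, and the log2 fold change went from 0.95 ± 0.47 (adjusted p = 0.505) to 1.69 ± 0.27 without it (unadjusted p = 0.000626, adjusted p = 0.149). Cyp4f40 had 199.5, 179 and 193 CPM against 171, 138 and 146 CPM, higher in all 3 libraries labelled Trmt6-/- by a small margin, at 0.33 ± 0.15 on the log2 scale (unadjusted p = 0.068).

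Among the other Cyp4f genes, Cyp4f13 had 53.6, 65.2 and 62.6 CPM against 40.2, 104 and 72.2 CPM and overlapped. Cyp4f15 was scarce, with 0.734, 0.698 and 0.0712 CPM against 2.34, 4.09 and 0.899 CPM, lower in all libraries labelled Trmt6-/- at a log2 fold change of -2.25 ± 0.83 (unadjusted p = 0.0302, adjusted p = 0.35) and -1.66 ± 0.86 without WT186 (unadjusted p = 0.0986). Cyp4f17 had 1.64, 1.05 and 1.07 CPM against 2.66, 2.39 and 1.68 CPM. The gap between its groups was narrow, and the log2 fold change was -0.83 ± 0.38 (unadjusted p = 0.0662).

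Cyp4v3, a fatty acid hydroxylase, was high in 2 of the 3 WT libraries, with 184, 374 and 334 CPM against 191, 701 and 616 CPM. WT185 fell among the libraries labelled Trmt6-/-, so the groups overlapped, at a log2 fold change of -0.76 ± 0.50 (adjusted p = 0.628) and -0.42 ± 0.53 without WT186. Cyp4b1 had 60.3, 116 and 80.8 CPM against 38.3, 157 and 113 CPM, and Cyp4a10, which follows the fatty acid sensor PPAR alpha, had 1.13, 9.85 and 6.55 CPM against 2.55, 27.5 and 0.959 CPM. Both overlapped and both changed sign without WT186, to 0.20 ± 0.48 and 1.73 ± 0.94. Cyp4a29, of the same subfamily, had 43 counts over the libraries labelled Trmt6-/- and 0 over WT. This was 14.96-fold higher against a floor of 3 counts over the group, with a lower limit of 11.7 by the counting interval.

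**Figure D4:**
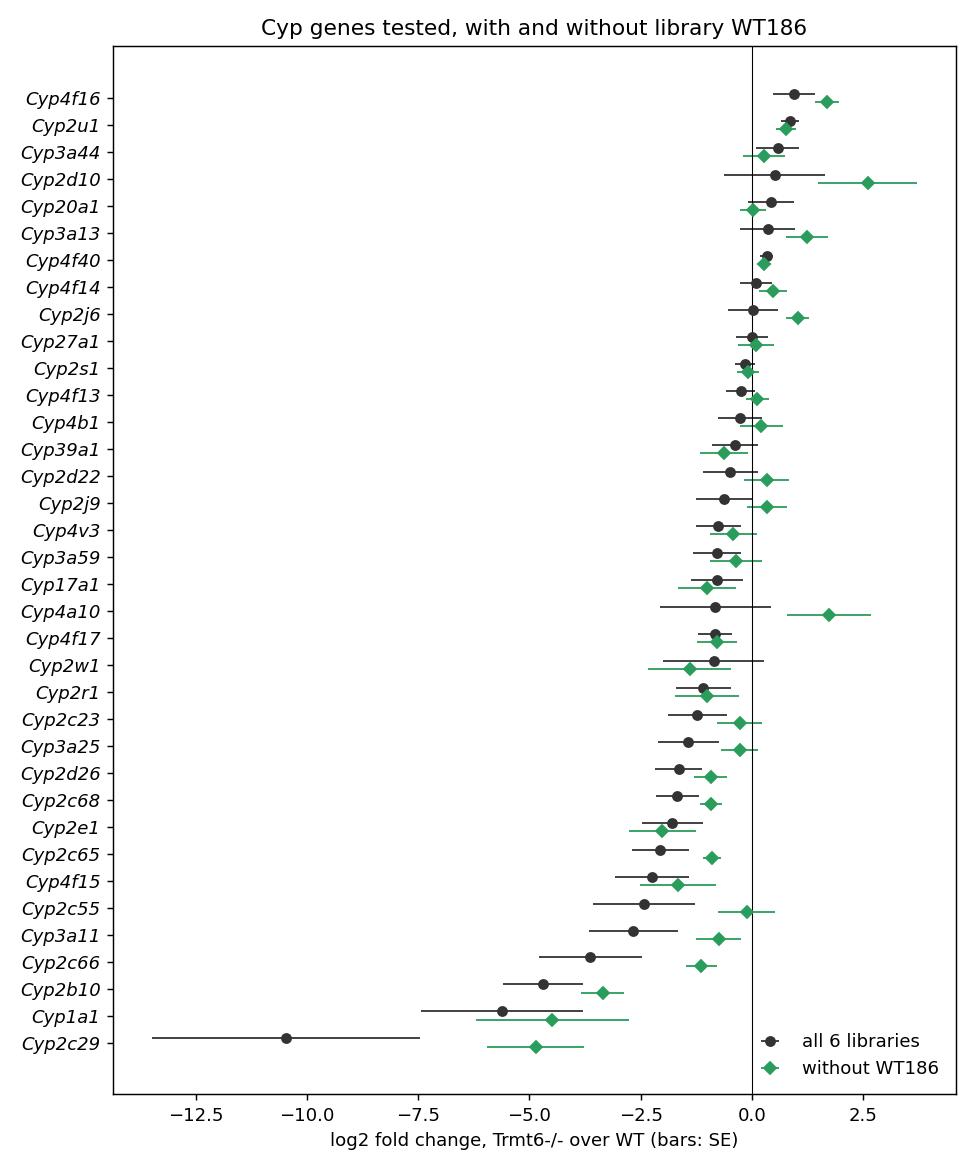
Log2 fold change (x axis, labelled Trmt6-/- over WT) of each tested P450 gene with counts in both groups, with SE bars, for all 6 libraries (circles) and without WT186 (diamonds). The diamonds of Cyp2d10, Cyp4a10, Cyp4f16, Cyp3a13 and Cyp2j6 lie above 1, and those of Cyp1a1, Cyp2b10 and Cyp2c29 stay below -3.

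Without WT186, 7 of the 39 P450 genes then tested were higher at an unadjusted p under 0.05 (against 6.84% of all genes tested). They were Cyp2u1 and Cyp11b2 and, in addition, Cyp11b1, Cyp2j6, Cyp3a13, Cyp4a29 and Cyp4f16. Cyp11b1, Cyp11b2 and Cyp4a29 had 0 counts in WT, so they passed the low-count filter only through the libraries labelled Trmt6-/-. Cyp11b1 and Cyp4a29 did not pass it with all 6 libraries. The same fit had 8 lower genes (against 4.68%), and none of either kind passed the adjusted threshold. With WT186 the abundant Cyp3a13, Cyp4f16 and Cyp2j6 did not separate the groups, so for them the size of the difference rests on that library.

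Fewer P450 genes of sterol, bile acid, retinoid and vitamin D chemistry were measured. Cyp27a1, the mitochondrial sterol hydroxylase, had 66.1, 84.5 and 59.00 CPM across libraries labelled Trmt6-/- and 35.7, 77.1 and 96.9 CPM in WT. Cyp39a1, an oxysterol hydroxylase of bile acid synthesis, had 12.3, 6.495 and 3.06 CPM against 11.7, 6.004 and 10.9 CPM. Cyp20a1, a member without a settled substrate, had 10.9, 8.24 and 8.61 CPM against 11.1, 2.39 and 7.13 CPM. All 3 overlapped between groups, and their unadjusted p-values were 1, 0.486 and 0.437. The retinoic acid hydroxylase gene Cyp26b1 and the vitamin D activating Cyp27b1 had 61 and 21 counts in all and were not tested, and Cyp24a1, which inactivates vitamin D, had fewer than 10.

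Cyp11b1 and Cyp11b2 make the last steps of corticosterone and aldosterone synthesis, work known mainly from the adrenal cortex. Cyp11b1 had 8, 29 and 24 counts in the libraries labelled Trmt6-/- and 0 in every WT library. This was 21.2-fold higher against a floor of 3 counts over the group, with a lower limit of 16.7 by the counting interval. Cyp11b2 had 12, 16 and 18 counts against 0, 16.01-fold higher against the same floor, with a lower limit of 12.5 by the counting interval. Every library labelled Trmt6-/- thus had reads and no WT library had any, at levels of 0.452, 2.03 and 1.71 CPM for the first and 0.677, 1.12 and 1.28 CPM for the second. Cyp11b1 fell under the low-count filter. Cyp11b2 was tested, with an unadjusted p of 0.000716 and an adjusted p of 0.13. DESeq2 gave it 0.000454, and edgeR without the low-count filter gave 0.0342 for Cyp11b1 and 0.0353 for Cyp11b2.

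Both genes lie on the minus strand of chromosome 15, Cyp11b1 at chr15:74834125-74841643 and Cyp11b2 at chr15:74851010-74856318, 9366 bases apart, and their neighbours showed the same direction. Gml2, on the opposite strand, had 117, 212 and 221 counts in the libraries labelled Trmt6-/- and 2, 1 and 0 in WT. Gml had 214, 431 and 391 counts against 12, 2 and 0. These Ly6-family genes were far more abundant than the P450 genes beside them, and Ly6d, with 173, 138 and 85 counts against 7, 4 and 6, passed the adjusted threshold together with Gml2 (adjusted p = 0.0347 and 0.0427).

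The exons of Cyp11b1 and Gml2 overlap over 285 of the 3165 exon bases of Cyp11b1 (9.01%). In unstranded counting, as the file headers show, reads there cannot be told apart and reads touching both genes were left out. Cyp11b1 and Cyp11b2 also share sequence, with 18.1% and 19.1% of their 50-base windows found in another gene. The gene before them in steroid synthesis, Cyp11a1, had 6 counts over all libraries, and Cyp21a1 had 0. Star, which brings cholesterol into mitochondria, had 5.59, 5.31 and 4.27 CPM against 5.16, 4.16 and 5.63 CPM and overlapped. Cyp17a1, a steroid hydroxylase of androgen synthesis, had 75 counts, with an unadjusted p of 0.216.

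**Figure D5:**
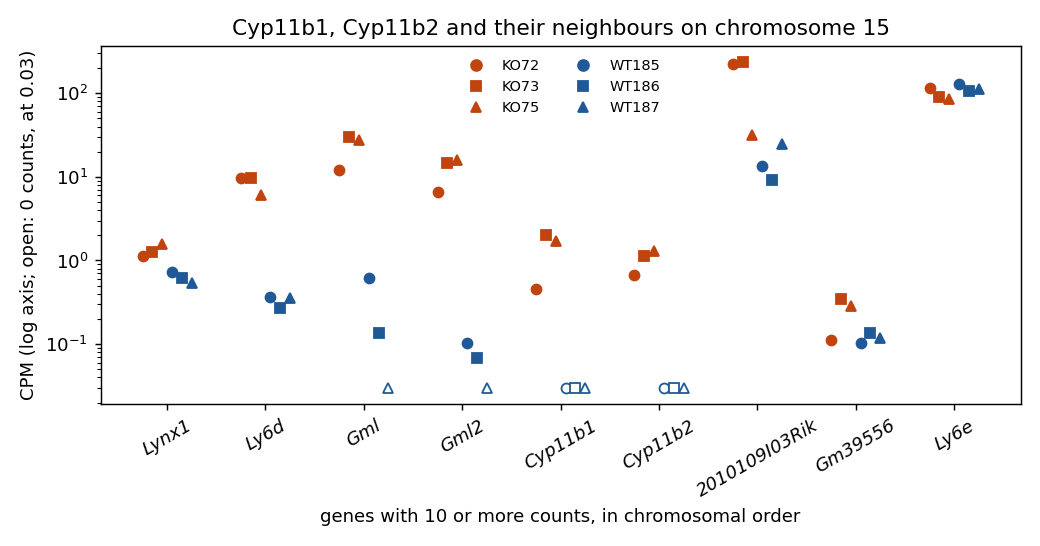
CPM of the genes around Cyp11b1 and Cyp11b2 in every library on a log axis, in their order on chromosome 15, with open symbols for 0 counts. Gml, Gml2, Ly6d and 2010109I03Rik lie higher in all 3 libraries labelled Trmt6-/-, as do both Cyp11b genes at lower levels, while Ly6e at the right overlaps between the groups.

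The 18 genes with fewer than 10 counts held among others Cyp1b1, Cyp2a12, Cyp2b9 and Cyp2c40, and the 25 at 0 held Cyp19a1, the aromatase gene, and most Cyp2a genes. Among the 19 genes with at least 10 counts that were not tested, means ran from 0.0923 to 1.04 CPM. When edgeR was run without the low-count filter, Cyp1a2, Cyp2c38, Cyp2c67 and Cyp4a32 were lower and Cyp11b1, Cyp2d12 and Cyp4a29 higher at an unadjusted p under 0.05, and of these Cyp11b1 passed the adjusted threshold. Cyp2d12 had 19 counts over the libraries labelled Trmt6-/- and 1 over WT, a ratio of 19.8 with a counting interval of 3.15 to 824. The untested genes named with their counts, Cyp11b1 included, were chosen after their values were seen.

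Partner genes of the P450 enzymes, from 5 lists with 64 tested genes, included none past the adjusted threshold in edgeR or limma-voom, and 5 by DESeq2, which called 1.83% of all genes tested lower and 2.66% higher (Ahr, Blvrb, Nfe2l2, Nr1h4 and Uros). Of 9 tested electron transfer genes, 1 was lower at an unadjusted p under 0.05 (against 5.94% of all genes tested), Fdxr, the reductase of the mitochondrial enzymes, with 8.69, 8.45 and 9.18 CPM against 12.2, 15.01 and 12.1 CPM. Cyb5r3, Cyb5a and Pgrmc2 had log2 fold changes of -0.84 ± 0.47, -0.73 ± 0.45 and -0.78 ± 0.49 and overlapped. P450 oxidoreductase, Por, had 305, 366 and 321 CPM against 144, 442 and 156 CPM. Of 12 heme genes, 3 were lower at that p (against 5.94% of all genes tested), Blvrb (-0.80 ± 0.20), Uros (-0.61 ± 0.20) and Urod (-0.38 ± 0.14), and 1 was higher, the heme oxygenase gene Hmox1 at 1.65 ± 0.67. Alas1, the first enzyme of heme synthesis, had 164, 156 and 165 CPM against 155, 237 and 215 CPM and overlapped.

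Of 23 tested sensor genes, 4 were lower at an unadjusted p under 0.05 (against 5.94% of all genes tested), Ahr, the oxidative stress factor gene Nfe2l2 (-1.03 ± 0.25), Ppara (-0.57 ± 0.20) and Vdr (-0.74 ± 0.29). The bile acid receptor gene Nr1h4 was the 1 that was higher (against 6.15%), with 139, 125 and 123 CPM against 81.3, 49.2 and 41.00 CPM (log2 fold change 1.18 ± 0.26, adjusted p = 0.19). Of 6 epoxide and eicosanoid genes, 1 was lower at that p, Ephx1, the microsomal epoxide hydrolase gene, with 6.55, 7.96 and 7.33 CPM against 11.9, 62.5 and 10.8 CPM. Ephx2, which hydrolyses fatty acid epoxides, had 108, 309 and 309 CPM against 232, 1053 and 371 CPM and overlapped, as did Pla2g4a and Alox5. Of 14 steroid and retinoid genes, 3 were lower at that p, Akr1c19 (-1.90 ± 0.67), Akr1b7 (-1.25 ± 0.41) and Dhrs3 (-0.55 ± 0.20), and Hsd3b3 had -0.97 ± 0.46.

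Some markers of intestinal segment differed beside the P450 genes. Of 9 proximal small intestinal genes, all tested, 5 were lower in the libraries labelled Trmt6-/- at an unadjusted p under 0.05 (against 5.94% of all genes tested), and the median log2 fold change was -2.07 (against -0.03). Lactase, Lct, had 119, 771 and 664 CPM against 756, 3192 and 2592 CPM, and Gata4 had 82.2, 132 and 132 CPM against 156, 271 and 214 CPM. The summed level of this list was 19474 to 33112 TPM among libraries labelled Trmt6-/- and 10388 to 37069 TPM in WT, ranges that overlapped. The 2 most abundant members overlapped too, at 0.59 ± 0.52 and 0.02 ± 0.45 on the log2 scale, Fabp2 with 4415, 5669 and 5484 CPM against 1237, 5007 and 4104 CPM and Slc5a1 with 1464, 2711 and 2654 CPM against 1266, 3542 and 1919 CPM. Fabp6 and Slc10a2 of the ileum split the WT group, with 543, 2.59 and 0.1199 CPM and 224, 3.14 and 0.659 CPM, and KO75 from KO72 and KO73, with 341, 267 and 16.7 CPM and 412, 283 and 62.8 CPM. The labels do not give the stretch taken, and the part of position along the intestine in the P450 differences was not tested.

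Of the 8 tested ileal genes, 2 were higher at an unadjusted p under 0.05 (against 6.15% of all genes tested), and the summed level was 6008 to 7259 TPM among libraries labelled Trmt6-/- and 4411 to 7812 TPM in WT, with Muc13 and Mep1b the most abundant. Pancreatic acinar genes appeared in WT186, with Cela2a at 9.82 CPM, Cpa1 at 9.28 CPM, Prss2 at 5.46 CPM and Cela3b at 1.77 CPM, and no count of these 4 in any other library. They were named after their values were seen, except Cela2a, and Cela1, with 25.8, 11.04 and 14.8 CPM against 5.58, 13.2 and 13.96 CPM, was found in all libraries. The part of pancreatic tissue, which adjoins the duodenum, in the P450 values of WT186 was not tested. The acinar list summed to 13.9 to 39.7 TPM among libraries labelled Trmt6-/- and 8.84 to 88.7 TPM in WT. Of the hepatocyte genes, Alb had 0, 0 and 0 CPM against 0.208, 1.57 and 0.1798 CPM, and Mup3 was at 0 throughout. Both were named after their values were seen. Of that list's 4 tested genes, 1 was higher, Tat (14.1, 50.1 and 72.4 CPM against 1.98, 0.955 and 0.1798 CPM), and Serpina1b overlapped. The list summed to 51.04 to 101 TPM among libraries labelled Trmt6-/- and 12.1 to 36.2 TPM in WT without overlap, and the part of these genes in the P450 differences was not tested.

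Other cell types gave these counts at an unadjusted p under 0.05, to be read against 5.94% of all genes tested lower and 6.15% higher. Enteroendocrine genes were lower for 5 of 7, Chgb (62.6, 62.9 and 74.7 CPM against 150.5, 206 and 127 CPM) and Chga (56.7, 58.2 and 55.9 CPM against 75.03, 95.04 and 82.2 CPM) included, and their list summed to 267 to 313 TPM among libraries labelled Trmt6-/- and 511 to 703 TPM in WT without overlap. Their part in the P450 differences was not tested. Among 9 enterocyte genes 1 was lower and none higher, and Apob had 6425, 10204 and 7302 CPM against 2294, 7319.6 and 6432 CPM. Among 6 goblet cell genes 1 was higher, with Fcgbp and Zg16 overlapping. Of 5 tested colon genes 1 was higher, Car4, and 1 lower, Aqp8, while Slc26a3 overlapped. None of 8 leukocyte genes passed, and Ptprc and Cd8a were highest in KO75 and WT187. None passed of 2 fibroblast or muscle genes tested (Dcn and Col3a1) or of the 1 adipocyte gene tested (Cidec, with Fabp4 too low).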

How the data were processed

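Gene counts of 6 RNA-seq libraries were used, 3 per genotype, all from DSS-treated mice. A ZYMO kit gave the RNA and amplified cDNA went into a Vazyme DNA library kit, per the labels, so reads are not independent molecules and counting intervals and floors cover counting error only. The deposited values are raw counts per gene, made by the authors with featureCounts 2.0.1 on exons of GENCODE M23, per the file headers, which set no strand, multimapping or overlap option. Trimming by fastp and alignment by HISAT2 to mm10 are named in the submitters' processing notes. Gene lengths, the other deposited column, served only to scale counts to TPM. The library columns name a group and a number that is in no sample title, but no replicate number.

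Symbols and biotypes came from GENCODE M21, and 55154 of 55335 identifiers matched. After filterByExpr and TMM scaling, counts went into the two-sided quasi-likelihood F test of edgeR 4.0.16 (R 4.3.3), genotype being the only term, with Benjamini-Hochberg adjustment over 14107 genes. The fit was tested on simulated data first. Values after ± are SE, taken as the log2 fold change divided by the square root of F. Genes were written out in every library if they had a mean of at least 5 CPM, an unadjusted p under 0.05, or groups without overlap at 1 CPM or more. From each partner list up to 4 genes were named, by p and then level, with Por, Alas1, Vdr, Nr1i2, Nr1i3, Arnt, Ahrr, Tiparp, Star, Tat, Car4, Aqp8 and the neighbours of Cyp11b1 added after their values were seen, and from each marker list the 2 most abundant, with Lct, Gata4, Fabp6 and Slc10a2. The members and lists were chosen with earlier results of these data known. Shared sequence was counted as 50-base windows of GENCODE transcripts found in another gene. Alternatives were other scalings, no filter and a stricter filter (1 CPM in 3 libraries), robust dispersions, DESeq2 1.42.0, limma-voom (limma 3.58.1) and leaving out each library.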

Additional observations from a re-analysis of the deposited data

How the results depend on the processing

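The count of P450 genes past the adjusted threshold was 0 under the other scalings, the stricter filter, robust dispersions, limma-voom and each left-out library (0 to 0), 3 without the low-count filter and 5 with DESeq2. Over all genes, 6 calls became 0 with library totals and with limma-voom, 159 without the filter and 633 with DESeq2, and 0 to 6 when 1 library was left out. The 12 P450 genes at an unadjusted p under 0.05 became 22 without the filter, where more genes were tested, and 9 to 18 when 1 library was left out. Of the fold changes of single P450 genes under the alternatives, 488 kept their direction and side of the threshold and 7 passed it in addition. A further 18, in 12 genes, changed direction. The 488 include Cyp2c29 and Cyp2c66 under DESeq2, which kept their direction but had no p-value there. When 1 library was left out, the ranges that crossed 0 were -0.29 to 0.3 for Cyp27a1 (below 0 without KO73 or WT185), -0.29 to 1.03 for Cyp2j6 (below 0 without KO75, WT185 or WT187), -0.14 to 0.47 for Cyp4f14 (without KO73 or WT185), -0.04 to 1.24 for Cyp3a13 (without WT185), -0.08 to 2.6 for Cyp2d10 (without WT187), -0.36 to 0.04 for Cyp2s1 (above 0 without KO75) and -1.92 to 0.43 for Cyp2w1 (without WT185). Those above 0 without WT186 only were -1.0 to 0.34 for Cyp2j9, -1.43 to 1.73 for Cyp4a10, -0.63 to 0.2 for Cyp4b1, -0.88 to 0.33 for Cyp2d22 and -0.52 to 0.12 for Cyp4f13. Library totals turned Cyp27a1 (-0.05) and limma-voom turned Cyp4a10 (0.04). The causes were not tested. No paired analysis was possible because the library columns carry no replicate numbers. Depth limits the P450 genes under about 1 CPM, most of which were not tested.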

Other observations

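The naming rule left out 31 Cyp loci that are pseudogenes or non-coding, of which 23 had no count in any library and 4 had at least 10 counts. The most counted was Cyp4f41-ps, with 17, 8 and 3 counts in the libraries labelled Trmt6-/- and 30, 11 and 12 in WT. Cyp2c52-ps had 4, 3 and 1 counts against 7, 9 and 9, Cyp2d37-ps had 7, 3 and 4 against 3, 8 and 9, and Cyp2d41-ps had 2, 0 and 2 against 7, 1 and 7. These loci carry the subfamily names of coding members, and at these counts no difference was tested.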
